A study of Homo sapiens with 38 samples.

Results

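Copying of the genome in S phase depends on a set of genes that are transcribed together as cells pass from G1 into S. The ORC, CDC6, CDT1 and MCM proteins license origins, CDC45 and the GINS proteins turn the MCM ring into an active helicase, and the clamp, clamp loader, polymerases, flap endonuclease and ligase extend and join the new strands. Ribonucleotide reductase, thymidylate synthase and thymidine kinase supply deoxynucleotides, and BRCA1, BRCA2, RBBP8 (CtIP), EXO1 and BLM act in the repair of double-strand breaks by homologous recombination. Many of these genes are known targets of the E2F transcription factors, which are held inactive by unphosphorylated RB proteins until cyclin-dependent kinases act on them.

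The genes described here are 44 such genes, chosen by symbol and sorted by role into 11 genes of origin licensing, 6 of helicase activation, 13 of the clamp, polymerases and ligation, 4 of nucleotide supply, 5 comprising E2F1, E2F2, both cyclin E genes and UHRF1, and 5 of homologous recombination. All 44 were listed among the 12627 genes measured, each by a single RefSeq identifier, and all 44 had at least 10 reads in at least 4 libraries. They were followed in the human colorectal cancer line HCT116 after RNA interference against VPS4A, VPS4B or both, the paralogous ATPases that take apart ESCRT-III polymers on membranes. RNA was collected 72 h after transfection and measured with an amplicon panel for human transcripts (Ion AmpliSeq) in 38 libraries of 9 conditions. Non-transfected cells (NT) and cells given a non-targeting duplex (siCTRL#1, 60 nM) were the reference conditions, and a further non-targeting duplex (siCTRL#2) was used alone, at a dose that the labels do not give. For single silencing, cells received 30 nM of siVPS4A#1, siVPS4B#1, siVPS4A#2 or siVPS4B#2 together with 30 nM of siCTRL#1. For silencing of both genes they received 30 nM of each of 2 duplexes, siVPS4A#2 with siVPS4B#1 in the condition named siVPS4A+B#1, and siVPS4A#1 with siVPS4B#2 in the condition named siVPS4A+B#2. Each on-target duplex was thus used once alone and once in a pair.

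Every condition had 4 libraries, except siCTRL#1 and siVPS4A#1 with 5 each as deposited, and libraries with the same replicate number share a batch in the labels. The library labelled siVPS4A#1 replicate 2 held 669257 reads and was left out of the comparisons, so that siVPS4A#1 has 4 libraries as well. The other 37 libraries held between 5090666 and 11035293 reads, with a median of 7561496, and the member with the fewest had 8 reads in its lowest library. Levels are given in RPM, a gene's reads as a share of the reads of its library on a scale common to all libraries, after TMM scaling, and are compared within a gene, not between genes. A gene is called lower or higher against both controls where limma, on log2(RPM + 1) and with Benjamini-Hochberg adjustment over all 12627 genes, found it changed at least 1.5 times, at an adjusted p under 0.05 and in the same direction, against NT and against siCTRL#1. All log2 fold changes below are on that scale, which understates the change of genes with few reads. The 12 comparisons with the controls share the control libraries, so their values are given side by side only.

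Both targets were silenced by every duplex directed at them. VPS4A had 325, 201, 249.5 and 218 RPM in the NT libraries and 198, 173, 179.5, 192 and 207 in the siCTRL#1 libraries. It had 3.52, 1.63, 1.88 and 1.71 with siVPS4A#1 and 5.89, 6.2, 8.93 and 10.51 with siVPS4A#2. It had 12.9, 33.9, 22.4 and 10.6 with siVPS4A+B#1 and 3.05, 7.69, 4.32 and 5.05 with siVPS4A+B#2. All libraries given a VPS4A duplex lay far below every control library, and siVPS4A#1, alone or in its pair, left less VPS4A than siVPS4A#2 did. The means were 1.15%, 4.15%, 10.51% and 2.65% of the siCTRL#1 mean in that order. With siCTRL#2 it had 234, 219, 251 and 227 RPM, with siVPS4B#1 188, 189, 214 and 229.8 and with siVPS4B#2 241, 223, 206 and 172.

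VPS4B had 19.9, 16.3, 29 and 23.8 RPM in the NT libraries, 23.9, 20.2, 16.4, 18.2 and 24.6 in the siCTRL#1 libraries and 35.5, 19.7, 38.8 and 33.4 in the siCTRL#2 libraries. It had 0.763, 0.68, 0.133 and 0.154 with siVPS4B#1 and 0.945, 0.72, 1.05 and 1.57 with siVPS4B#2. It had 0.312, 0.456, 0.358 and 1.03 with siVPS4A+B#1 and 1.52, 1.49, 1.28 and 0.842 with siVPS4A+B#2. These 16 libraries lay below every control library, and they held between 1 and 16 reads of VPS4B, so the depth of silencing is known only roughly. The means were 2.09% with siVPS4B#1 and 5.19% with siVPS4B#2 of the siCTRL#1 mean, and 2.6% and 6.21% with the pairs. VPS4B stood at 24.4, 21.4, 32.1 and 26.4 with siVPS4A#1 and at 19.9, 14.3, 22.1 and 22.5 with siVPS4A#2. In the library labelled siVPS4A#1 replicate 2, VPS4A stood at 11.3 RPM and VPS4B, which that duplex does not target, at 1.62, or 1 read. The VPS4B of that library thus goes against its label, and which duplexes it received was not settled here.

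Of the 9 epithelial markers fixed for the cell line, 6 were listed in the table used here (EPCAM, KRT8, KRT18, KRT19, CDH1 and CDX2), and their sum lay between 4363 and 8200 RPM over all 37 libraries. KRT19, a keratin of simple epithelia, was the only one called against both controls, higher with siVPS4B#1 (log2 fold change 0.72 against siCTRL#1) and with siVPS4A+B#1 (1.03). Of 9 markers of other cell types, CD68, COL1A1 and PECAM1 were listed, and their sum lay between 13.5 and 21.6 RPM in NT cells and between 25.1 and 41.2 with siCTRL#1. The sum was 132 to 199 with siVPS4A+B#1 and 97.6 to 147 with siVPS4A+B#2, and 50.2 to 62 with siVPS4B#1, all above every control library (27.4 to 46 with siCTRL#2). It was 41.5 to 68.2 with siVPS4A#1, 22.4 to 45.6 with siVPS4A#2 and 31.8 to 42.3 with siVPS4B#2. In the library labelled siVPS4A#1 replicate 2 it was 193, with 169.9 of CD68, which the other siVPS4A#1 libraries had at 4.37, 7.02, 8.96 and 6.96. In siVPS4A+B#1 most of it was CD68, a glycoprotein of late endosomes and lysosomes that also serves as a macrophage marker, with 131, 90.4, 146 and 176 RPM against 7.58, 5.29, 9.48, 8.98 and 10.3 with siCTRL#1. In siVPS4A+B#2 CD68 had 44.5, 50.6, 95.3 and 40.5 RPM and COL1A1, a fibrillar collagen chain, 53, 60.8, 51.4 and 85.2 against 23.7, 31.4, 28.4, 15.6 and 30.6 with siCTRL#1. CD68 was called higher against both controls with siVPS4B#1 (1.36 against siCTRL#1), siVPS4A+B#1 (3.92) and siVPS4A+B#2 (2.65), and COL1A1 with siVPS4A#1 (0.84) and siVPS4A+B#2 (1.33). PECAM1, an endothelial marker, stayed below 2 RPM in every library, and the other 6 markers, among them PTPRC, were not listed in the table used here. Whether these markers have a part in the results below was not tested.

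**Figure D1:**
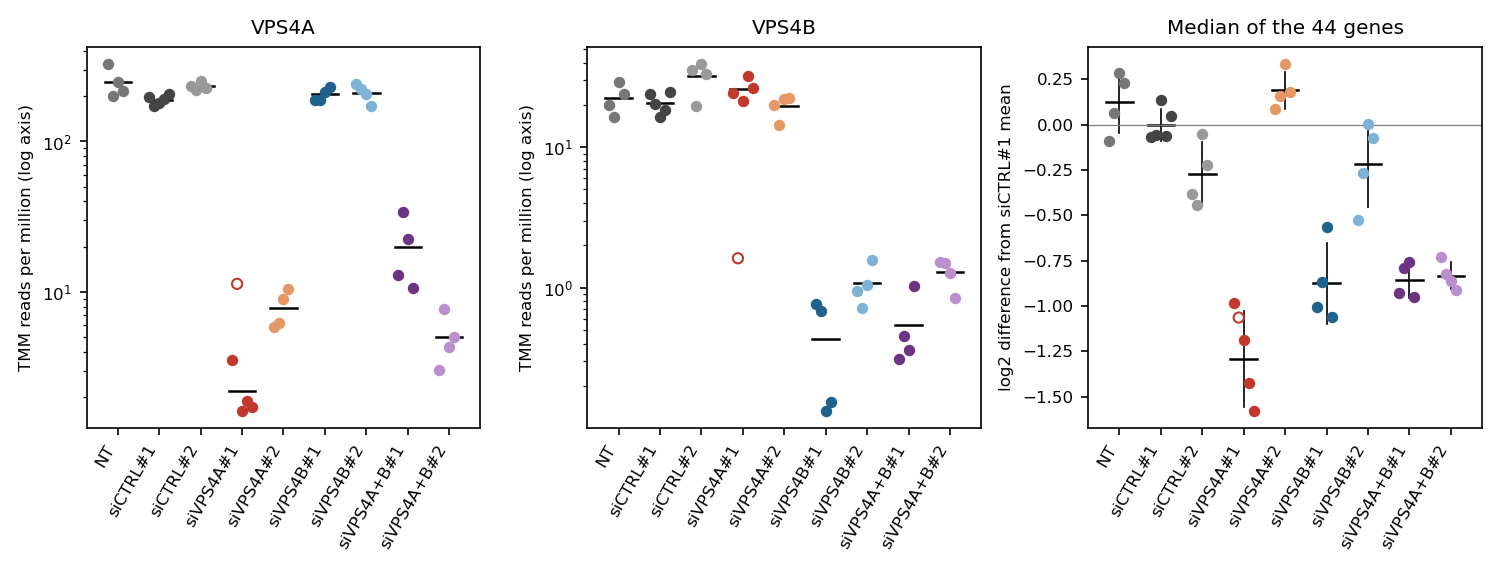
VPS4A and VPS4B in TMM-scaled RPM (log axes) and the median over the 44 genes of the log2 difference from the siCTRL#1 mean, by condition. Each point is a library, open for the library labelled siVPS4A#1 replicate 2 that the comparisons leave out. Horizontal bars are means of the others, and vertical bars, drawn only for the median of the 44 genes, are their SD. The median of the 44 genes is near 0 with siVPS4A#2 and between -1.58 and -0.98 with siVPS4A#1.

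Most of the 44 genes fell with siVPS4A#1, with siVPS4B#1 and with both pairs, and did not pass the test with siVPS4A#2. With siVPS4A#1, 40 of the 44 were lower against both controls, where 8.85% of all genes were, and 1 was higher (5.73% of all genes). Their median log2 fold change was -1.35 against siCTRL#1 and -1.49 against NT, beside medians of 0.01 and 0.00 over all genes. With siVPS4A#2, 0 of the 44 were called in either direction (limma, 0 also at an unadjusted p under 0.05, and 0 by edgeR and by DESeq2), where 0.0317% of all genes were lower and 0% higher. Their log2 fold changes against siCTRL#1 ran from -0.14 to 0.42, with a median of 0.17 (0.00 over all genes) and standard errors between 0.12 and 0.24. Against NT alone, 3 were lower (3.83% of all genes) and 2 higher (4.32%). Their log2 fold changes there ran from -0.97 to 0.76, with a median of 0.13. In a bulk sample, fewer cells in S phase and less RNA of these genes per cell cannot be told apart.

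With siVPS4B#1, 35 of the 44 were lower (5.23% of all genes) and 0 higher (3.7%, and 0 members higher by edgeR or DESeq2), with median log2 fold changes of -0.93 against siCTRL#1 and -0.99 against NT. With siVPS4B#2, 3 were lower (2.36% of all genes) and 0 higher (1.45%), and the medians were -0.24 and -0.29. Without replicate 1, 0 of the 44 were called with siVPS4B#2. With siVPS4A+B#1, 32 were lower (7.3% of all genes) and 0 higher (7.39%), and the medians were -0.91 and -0.97 beside -0.02 and -0.04 over all genes. With siVPS4A+B#2, 29 were lower (10.9% of all genes) and 1 higher (8.1%), with medians of -0.90 and -0.97. In each of these conditions but siVPS4B#2 the members' share was several times the share of all genes. The largest adjusted p among the calls was 0.00314 with siVPS4A#1, 0.0124 with siVPS4B#1, 0.0136 with siVPS4B#2, 0.0107 with siVPS4A+B#1 and 0.00605 with siVPS4A+B#2 (limma).

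By library, as the median over the 44 genes of the log2 difference from the siCTRL#1 mean, the NT libraries stood at -0.09, 0.06, 0.28 and 0.23, the siCTRL#1 libraries at -0.07, -0.06, 0.13, -0.06 and 0.05 and the siCTRL#2 libraries at -0.38, -0.44, -0.05 and -0.22. The siVPS4A#1 libraries stood at -0.98, -1.19, -1.42 and -1.58, and the siVPS4A#2 libraries at 0.09, 0.16, 0.33 and 0.18. The siVPS4A#1 libraries thus lay below every library of NT, siCTRL#1 and siCTRL#2, while those of siVPS4A#2 overlapped with NT and with siCTRL#1. The siVPS4B#1 libraries stood at -1.01, -0.87, -0.56 and -1.06, and the siVPS4B#2 libraries at -0.53, -0.27, 0.00 and -0.07. The pairs stood at -0.93, -0.79, -0.76 and -0.95 (siVPS4A+B#1) and -0.73, -0.83, -0.86 and -0.91 (siVPS4A+B#2). No library of siVPS4B#1 or of either pair reached the control libraries, though the lowest of siCTRL#2 came near the highest of siVPS4B#1. The siVPS4B#2 libraries overlapped with those of siCTRL#2, and the pairs overlapped with each other and with siVPS4B#1. The library labelled siVPS4A#1 replicate 2 stood at -1.06, and since its VPS4B goes against its label, no direction for siVPS4A#1 is drawn from it. Within a batch, 43 of the 44 genes were lower than in the siCTRL#1 library of the same replicate number in each of the 4 siVPS4A#1 libraries, 39 to 43 with siVPS4B#1, 40 to 42 with each pair, 23 to 36 with siVPS4B#2 and 7 to 15 with siVPS4A#2. With siCTRL#2 it was 27 to 37, so siVPS4B#2 did not go beyond this control. These counts within a batch were not made over all genes. Over all genes, the median log2 difference from the siCTRL#1 mean lay between -0.04 and 0.01 in the libraries compared. The median difference from the siCTRL#1 library of the same number was 0.13, 0.15, 0.24 and 0.28 with siVPS4A#2, -0.41, -0.18, -0.17 and -0.06 with siVPS4B#2 and -0.26, -0.38, -0.12 and -0.17 with siCTRL#2. From the NT library it was 0.08, 0.14, 0.13 and -0.12 with siVPS4A#2, -0.42, -0.26, -0.22 and -0.37 with siVPS4B#2 and -0.33, -0.46, -0.29 and -0.50 with siCTRL#2. Within batches siVPS4A#2 thus lay above siCTRL#1 each time but not above NT each time, and siVPS4B#2 and siCTRL#2 lay below both each time.

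The controls were not alike in these genes. Between siCTRL#1 and NT, 3 of the 44 were lower (4.21% of all genes) and 2 higher (4.84%), a share near that of all genes. GINS3, E2F1 and E2F2 were lower and MCM5 and FEN1 higher with siCTRL#1, and these 5 are named after their values were seen. Between the 2 non-targeting duplexes, 13 were lower with siCTRL#2 (11% of all genes) and 1, CCNE1, was higher (5.84%), with a median log2 fold change of -0.32. Without replicate 1 the 14 became 9. The largest falls with siCTRL#2 were those of UHRF1 (-1.08), MCM5 (-1.08) and CDT1 (-0.96). Where siCTRL#2 was taken as a further control, a comparison added after the data were seen, siVPS4A#1 kept 34 of 41 calls, siVPS4A+B#2 21 of 30, siVPS4B#1 17 of 35, siVPS4A+B#1 16 of 32 and siVPS4B#2 1 of 3. Of all genes called, 77.3%, 76.1%, 59.4%, 68.5% and 65.9% were kept in the same order. Whether the share kept differs between the members and all genes was not tested. The members called by this rule were 34 lower (6.94% of all genes) and 0 higher (4.33%) with siVPS4A#1, 17 lower (2.94% of all genes) and 0 higher (2.37%) with siVPS4B#1, 1 lower (1.48% of all genes) and 0 higher (1.03%) with siVPS4B#2, 16 lower (4.51% of all genes) and 0 higher (5.55%) with siVPS4A+B#1, 20 lower (8.09% of all genes) and 1 higher (6.36%) with siVPS4A+B#2 and 0 lower (0.0317% of all genes) and 0 higher (0%) with siVPS4A#2.

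**Figure D2:**
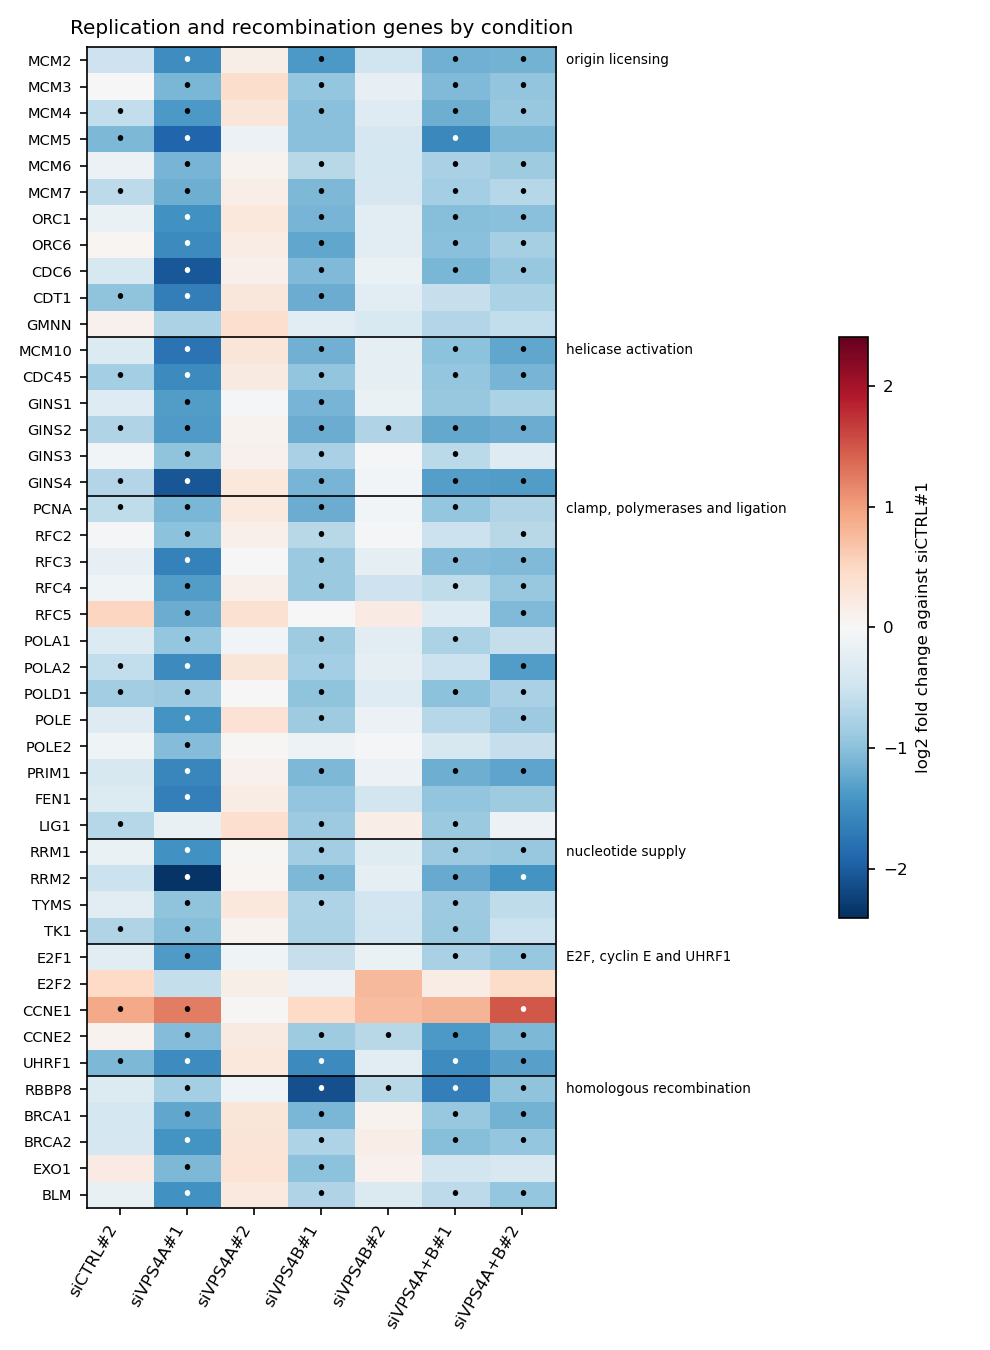
Log2 fold changes of the 44 genes against siCTRL#1 (colour, blue lower and red higher) with siCTRL#2 and the 6 on-target conditions, ordered by role. Dots mark calls against both controls (for siCTRL#2, against siCTRL#1); the siVPS4A#2 column holds none, and CCNE1 is the member called higher, with siCTRL#2, siVPS4A#1 and siVPS4A+B#2.

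Since many of these genes are known E2F targets, the sequences before their starts were searched for E2F words. The 250 bases before the start were taken from RefSeq (GRCh38.p14) for 40 of the 44 members and searched on both strands for the words TTTCCCGC, TTTGGCGC, TTTCGCGC and TTTGCCGC. A word was found for 15 of 40 (37.5%), against 4.52% of the 10211 genes of the table with a promoter and 2.79% of all 27305 promoters. With the words TTCCCGCC and TTGGCGCC in their place, it was 12 of 40 members (30%), 5.98% and 3.64%. By role the words of the first set were found in 6 of 13 genes of the clamp, polymerases and ligation, 4 of 9 of origin licensing, 3 of 4 of the group of E2F, cyclin E and UHRF1 genes, 1 of 5 of helicase activation, 1 of 4 of nucleotide supply and 0 of 5 of homologous recombination, of the genes matched. With the second set the numbers were 6, 2, 1, 1, 1 and 1 in the same order. The 160 bases before the start are shown for 6 members with a word of the first set, to show where it lies. They are also shown for RRM2, the member with the largest fall with siVPS4A#1, which has no word of either set. Capitals mark words of the first set, and those of the second set, which UHRF1 and GINS2 also hold, are not marked. The intervals, in the same order, are chr2:135876444-135876603 (minus strand), chr16:85688955-85689114 (minus strand), chr13:33817989-33818148 (plus strand), chr20:33686386-33686545 (minus strand), chr19:4909341-4909500 (plus strand) and chr18:657493-657652 (plus strand), and chr2:10122579-10122738 (plus strand) for RRM2.
MCM6: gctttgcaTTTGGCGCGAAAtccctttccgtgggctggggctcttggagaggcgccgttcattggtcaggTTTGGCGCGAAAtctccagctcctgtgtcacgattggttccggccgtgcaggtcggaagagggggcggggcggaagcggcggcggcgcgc
GINS2: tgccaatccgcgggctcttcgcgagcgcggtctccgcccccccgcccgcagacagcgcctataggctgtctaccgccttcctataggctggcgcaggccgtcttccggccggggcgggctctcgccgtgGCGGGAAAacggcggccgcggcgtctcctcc
RFC3: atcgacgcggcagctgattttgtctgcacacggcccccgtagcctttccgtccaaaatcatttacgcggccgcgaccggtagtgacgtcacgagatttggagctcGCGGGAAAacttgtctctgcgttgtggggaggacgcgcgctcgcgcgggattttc
E2F1: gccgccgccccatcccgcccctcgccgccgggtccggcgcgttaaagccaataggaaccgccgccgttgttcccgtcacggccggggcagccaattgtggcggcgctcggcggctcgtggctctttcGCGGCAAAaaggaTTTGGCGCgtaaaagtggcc
UHRF1: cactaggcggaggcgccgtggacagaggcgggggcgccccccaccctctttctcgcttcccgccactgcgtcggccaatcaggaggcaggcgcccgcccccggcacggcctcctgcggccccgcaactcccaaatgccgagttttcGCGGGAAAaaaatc
TYMS: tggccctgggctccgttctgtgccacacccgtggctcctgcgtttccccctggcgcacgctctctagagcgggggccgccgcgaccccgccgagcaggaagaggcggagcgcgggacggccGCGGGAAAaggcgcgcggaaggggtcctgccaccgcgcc
RRM2: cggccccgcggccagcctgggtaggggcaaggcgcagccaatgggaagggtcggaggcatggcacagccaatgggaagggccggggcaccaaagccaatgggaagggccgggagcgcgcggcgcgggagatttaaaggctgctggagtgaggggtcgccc
In MCM6 the run TTTGGCGCGAAA appears at 152 and again at 90 bases before the start and holds words of both strands that overlap. The E2F1 promoter holds 2 words, 33 and 20 bases before its start. In UHRF1, GINS2, TYMS and RFC3 the word of the first set begins 14, 31, 39 and 55 bases before the start. A match of letters is a description and not a bound site, and both genes with a word and genes without one, such as RRM2 and CDC6, fell.

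Of the 11 genes of origin licensing, the number lower against both controls was 10 with siVPS4A#1, 0 with siVPS4A#2, 9 with siVPS4B#1, 0 with siVPS4B#2, 9 with siVPS4A+B#1 and 8 with siVPS4A+B#2. Their median log2 fold changes against siCTRL#1 were -1.46 with siVPS4A#1, 0.18 with siVPS4A#2, -1.06 with siVPS4B#1, -0.31 with siVPS4B#2, -1.03 with siVPS4A+B#1 and -0.90 with siVPS4A+B#2. MCM5, a subunit of the MCM2-7 helicase ring, had 55.7, 130.01, 149 and 147 RPM in NT cells, 206, 114, 269.8, 198 and 131 with siCTRL#1 and 72.4, 91.1, 119.97 and 87.6 with siCTRL#2. Its levels were 58.5, 62.3, 47.8 and 26.5 with siVPS4A#1, 161, 188, 273 and 115 with siVPS4A#2, 79.2, 87.2, 147 and 85.4 with siVPS4B#1 and 118, 166, 186 and 126 with siVPS4B#2. The pairs gave 75.3, 51.4, 91.5 and 52.8 (siVPS4A+B#1) and 154, 48.2, 152 and 62.6 (siVPS4A+B#2). The libraries of all 6 on-target conditions overlapped with those of NT and siCTRL#1. Against siCTRL#1 the log2 fold change was -1.91 with siVPS4A#1 (adjusted p 1.19e-08) and -1.55 with siVPS4A+B#1 (adjusted p 1.59e-06), both called against both controls (limma). Values without a call against both controls: -0.14 with siVPS4A#2, -1.0 with siVPS4B#1, -0.40 with siVPS4B#2 and -1.07 with siVPS4A+B#2. Its NT libraries spread widely, from 55.7 in replicate 1 to 149, and MCM5 was one of the members that differed between siCTRL#1 and NT.

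In NT cells MCM2, another subunit of that ring, stood at 21.1, 28.5, 25.6 and 35.5 RPM, with siCTRL#1 at 27.1, 27.2, 29.6, 23.2 and 25.3 and with siCTRL#2 at 17.9, 19.9, 18.2 and 19.3. Single silencing gave 12.9, 5.01, 11.3 and 7.45 (siVPS4A#1), 30.1, 27.5, 29.4 and 32 (siVPS4A#2), 11.4, 11, 12.1 and 5.87 (siVPS4B#1) and 13.7, 17.6, 21.8 and 25.4 (siVPS4B#2). MCM2 had 14.7, 13.5, 11.3 and 7.77 with siVPS4A+B#1 and 15.1, 12.2, 7.21 and 14.3 with siVPS4A+B#2. siVPS4A#1, siVPS4B#1 and both pairs left MCM2 lower in each library than in every NT and siCTRL#1 library, and the libraries of siVPS4A#2 and siVPS4B#2 overlapped with them. On the log2 scale the change from siCTRL#1 was -1.49 with siVPS4A#1 (adjusted p 4.87e-07), -1.38 with siVPS4B#1 (adjusted p 8.98e-06), -1.16 with siVPS4A+B#1 (adjusted p 5.3e-05) and -1.13 with siVPS4A+B#2 (adjusted p 4.94e-05), all called against both controls (limma). Elsewhere, with no call against both controls, it was 0.13 with siVPS4A#2 and -0.48 with siVPS4B#2.

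MCM3, an MCM subunit, averaged 474 RPM in NT, 328 with siCTRL#1 and 334 with siCTRL#2, against 158 and 451 with siVPS4A#1 and siVPS4A#2, 177 and 296 with siVPS4B#1 and siVPS4B#2, and 162 and 178 with the pairs siVPS4A+B#1 and siVPS4A+B#2. For MCM4, an MCM subunit, the means in the same order were 233, 199 and 129 in the controls and 74.1, 239, 97.1, 158, 86.2 and 102 in the on-target conditions. MCM6, an MCM subunit, had mean levels of 252, 218 and 211 in the controls and of 105, 247, 146, 173, 134 and 126 in the on-target conditions, in that order. MCM3, MCM4 and MCM6 were lower against both controls with siVPS4A#1, siVPS4B#1 and both pairs. MCM7, an MCM subunit, averaged 387 RPM in NT, 355 with siCTRL#1 and 233 with siCTRL#2, against 157 and 402 with siVPS4A#1 and siVPS4A#2, 172 and 274 with siVPS4B#1 and siVPS4B#2, and 207 and 229 with the pairs siVPS4A+B#1 and siVPS4A+B#2. For ORC1, a subunit of the origin recognition complex, the means in the same order were 13, 13.7 and 12.4 in the controls and 4.16, 16.7, 6.01, 11.7, 6.35 and 6.28 in the on-target conditions. ORC6, the smallest subunit of that complex, had mean levels of 38.3, 36.5 and 40.3 in the controls and of 12.4, 43.4, 15.7, 32.2, 18.6 and 21.5 in the on-target conditions, in that order. MCM7, ORC1 and ORC6 were lower against both controls with siVPS4A#1, siVPS4B#1 and both pairs. CDC6, the ATPase that helps to load the MCM ring, averaged 86.5 RPM in NT, 81.1 with siCTRL#1 and 67.8 with siCTRL#2, against 19.9 and 96.1 with siVPS4A#1 and siVPS4A#2, 42.5 and 78.4 with siVPS4B#1 and siVPS4B#2, and 40.2 and 45.8 with the pairs siVPS4A+B#1 and siVPS4A+B#2. For CDT1, the other loading factor, the means in the same order were 146, 163 and 85.3 in the controls and 51.2, 200.3, 72.7, 139, 114 and 100.04 in the on-target conditions. GMNN, geminin, the inhibitor of CDT1, had mean levels of 12.1, 13.9 and 15.4 in the controls and of 8.21, 18.9, 11.8, 10.7, 8.28 and 9.34 in the on-target conditions, in that order. CDC6 was lower against both controls with siVPS4A#1, siVPS4B#1 and both pairs, CDT1 was lower against both controls with siVPS4A#1 and siVPS4B#1, and GMNN was not called against both controls in any of the 6 conditions.

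Of the 6 genes of helicase activation, MCM10, CDC45 and GINS1 to GINS4, the number lower against both controls was 6 with siVPS4A#1, 0 with siVPS4A#2, 6 with siVPS4B#1, 1 with siVPS4B#2, 5 with siVPS4A+B#1 and 4 with siVPS4A+B#2. GINS4, a subunit of the GINS complex that joins CDC45 and the MCM ring, had 11.8, 12.8, 14.2 and 20.3 RPM in NT cells, 12.3, 21.8, 19.3, 15.9 and 23 with siCTRL#1 and 10.2, 10.1, 10.55 and 10.04 with siCTRL#2. Its levels were 4.58, 2.88, 2.99 and 4.03 with siVPS4A#1, 20.1, 16.1, 26.2 and 21.8 with siVPS4A#2, 5.95, 9.23, 10.3 and 5.25 with siVPS4B#1 and 12, 16.8, 18 and 19.7 with siVPS4B#2. The pairs gave 7.33, 8.98, 6.2 and 3.66 (siVPS4A+B#1) and 4.23, 5.98, 7.05 and 8.06 (siVPS4A+B#2). All libraries given siVPS4A#1, siVPS4B#1 and both pairs lay below every NT and siCTRL#1 library, and the libraries of siVPS4A#2 and siVPS4B#2 overlapped with them. The siCTRL#2 libraries overlapped with those of siVPS4B#1. The fitted log2 fold change against siCTRL#1 was -2.06 with siVPS4A#1 (adjusted p 1.01e-10), -1.12 with siVPS4B#1 (adjusted p 8.53e-05), -1.33 with siVPS4A+B#1 (adjusted p 2.42e-06) and -1.35 with siVPS4A+B#2 (adjusted p 1.23e-06), all called against both controls (limma). Conditions with no call against both controls gave 0.25 with siVPS4A#2 and -0.07 with siVPS4B#2. In NT cells GINS2, another GINS subunit, stood at 57.4, 71.2, 88 and 66.7 RPM, with siCTRL#1 at 83.7, 61.3, 80.8, 67.6 and 63.2 and with siCTRL#2 at 32, 38.3, 66.4 and 48.7. Single silencing gave 37.6, 32.8, 20.7 and 20.3 (siVPS4A#1), 60.7, 74.7, 104 and 79.7 (siVPS4A#2), 29.3, 30.8, 41.3 and 27.5 (siVPS4B#1) and 35.8, 44.5, 49.7 and 50.9 (siVPS4B#2). GINS2 had 27, 35.3, 37.9 and 26.4 with siVPS4A+B#1 and 36.4, 28.8, 38.1 and 25.9 with siVPS4A+B#2. For siVPS4A#1, siVPS4B#1, siVPS4B#2 and both pairs, no library reached the lowest of NT and siCTRL#1, and the libraries of siVPS4A#2 overlapped with them. Those of siCTRL#2 overlapped with the libraries of siVPS4A#1, siVPS4B#1, siVPS4B#2 and both pairs. Against siCTRL#1 the log2 fold change was -1.36 with siVPS4A#1 (adjusted p 2.2e-09), -1.20 with siVPS4B#1 (adjusted p 2.91e-07), -0.72 with siVPS4B#2 (adjusted p 0.00167), -1.22 with siVPS4A+B#1 (adjusted p 5.4e-08) and -1.19 with siVPS4A+B#2 (adjusted p 5.3e-08), all called against both controls (limma). The remaining value, 0.08 with siVPS4A#2, was not called against both controls. GINS2 was thus the helicase gene called with siVPS4B#2.

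MCM10, a firing factor of the helicase, averaged 74.3 RPM in NT, 80.6 with siCTRL#1 and 67.3 with siCTRL#2, against 23.7 and 105 with siVPS4A#1 and siVPS4A#2, 37.9 and 70.9 with siVPS4B#1 and siVPS4B#2, and 41.3 and 34.6 with the pairs siVPS4A+B#1 and siVPS4A+B#2. For CDC45, a subunit of the active helicase, the means in the same order were 33.1, 25.7 and 14.7 in the controls and 8.94, 30.9, 13.4, 22.8, 13.4 and 11.8 in the on-target conditions. GINS1, a GINS subunit, had mean levels of 19.1, 23.7 and 19.8 in the controls and of 8.68, 24.2, 11.1, 22.5, 12.8 and 14.2 in the on-target conditions, in that order. MCM10 and CDC45 were lower against both controls with siVPS4A#1, siVPS4B#1 and both pairs, and GINS1 was lower against both controls with siVPS4A#1 and siVPS4B#1. GINS3, a GINS subunit, averaged 13.9 RPM in NT, 8.03 with siCTRL#1 and 7.4 with siCTRL#2, against 3.83 and 8.56 with siVPS4A#1 and siVPS4A#2, 4.22 and 7.94 with siVPS4B#1 and siVPS4B#2, and 4.79 and 6.16 with the pairs siVPS4A+B#1 and siVPS4A+B#2. GINS3 was lower against both controls with siVPS4A#1, siVPS4B#1 and siVPS4A+B#1.

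Of the 13 genes of the clamp, polymerases and ligation, the number lower against both controls was 12 with siVPS4A#1, 0 with siVPS4A#2, 10 with siVPS4B#1, 0 with siVPS4B#2, 7 with siVPS4A+B#1 and 8 with siVPS4A+B#2. PRIM1, the catalytic subunit of primase, had 44.1, 39.1, 44 and 40.6 RPM in NT cells, 46.1, 40.9, 44, 42.7 and 41.3 with siCTRL#1 and 34, 32, 39.8 and 30.9 with siCTRL#2. Its levels were 18, 15.9, 11.9 and 10.51 with siVPS4A#1, 41.8, 52.7, 53.1 and 44.8 with siVPS4A#2, 19.2, 18.3, 28.8 and 17.9 with siVPS4B#1 and 36.9, 39.3, 42.2 and 44.6 with siVPS4B#2. The pairs gave 19.6, 21.9, 22.1 and 14.8 (siVPS4A+B#1) and 21, 17.7, 16.8 and 16.5 (siVPS4A+B#2). All libraries given siVPS4A#1, siVPS4B#1 and both pairs lay below every NT and siCTRL#1 library, and the libraries of siVPS4A#2 and siVPS4B#2 overlapped with them. On the log2 scale the change from siCTRL#1 was -1.57 with siVPS4A#1 (adjusted p 2.16e-12), -1.08 with siVPS4B#1 (adjusted p 1.45e-07), -1.16 with siVPS4A+B#1 (adjusted p 7.67e-09) and -1.27 with siVPS4A+B#2 (adjusted p 5.63e-10), all called against both controls (limma). Conditions with no call against both controls gave 0.10 with siVPS4A#2 and -0.13 with siVPS4B#2. In NT cells FEN1, the endonuclease that removes flaps from Okazaki fragments, stood at 46, 58.8, 71.1 and 72.2 RPM, with siCTRL#1 at 70.4, 98.5, 111, 80.2 and 98.5 and with siCTRL#2 at 62.3, 74.3, 66.5 and 93.1. Single silencing gave 37.1, 27.1, 26.3 and 22.5 (siVPS4A#1), 92.8, 103, 107 and 116 (siVPS4A#2), 40.3, 50.5, 56.9 and 42.8 (siVPS4B#1) and 54.8, 74.3, 64.8 and 77.3 (siVPS4B#2). FEN1 had 48.3, 63.3, 52.6 and 30.6 with siVPS4A+B#1 and 54.1, 49.3, 42.3 and 58.2 with siVPS4A+B#2. siVPS4A#1 left FEN1 lower in each library than in every NT and siCTRL#1 library, and the libraries of siVPS4A#2, siVPS4B#1, siVPS4B#2 and both pairs overlapped with them. The fitted log2 fold change against siCTRL#1 was -1.64 with siVPS4A#1 (adjusted p 1.96e-10), called against both controls (limma). Values without a call against both controls: 0.18 with siVPS4A#2, -0.95 with siVPS4B#1, -0.45 with siVPS4B#2, -0.95 with siVPS4A+B#1 and -0.85 with siVPS4A+B#2. Between siCTRL#1 and NT, FEN1 differed (0.59 on the log2 scale, adjusted p 0.014, limma), and against NT its values were -0.37 with siVPS4B#1, -0.37 with siVPS4A+B#1 and -0.27 with siVPS4A+B#2.

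PCNA, the sliding clamp, averaged 108 RPM in NT, 128 with siCTRL#1 and 86.6 with siCTRL#2, against 59.4 and 159.7 with siVPS4A#1 and siVPS4A#2, 56.9 and 128 with siVPS4B#1 and siVPS4B#2, and 68.9 and 80.3 with the pairs siVPS4A+B#1 and siVPS4A+B#2. For RFC2, a clamp loader subunit, the means in the same order were 78.4, 65.4 and 61.7 in the controls and 32.7, 69.6, 39.6, 62.9, 44.8 and 40.6 in the on-target conditions. RFC3, a clamp loader subunit, had mean levels of 39.5, 34.4 and 32.5 in the controls and of 11.2, 36.4, 19.3, 31.5, 17.4 and 17.3 in the on-target conditions, in that order. PCNA was lower against both controls with siVPS4A#1, siVPS4B#1 and siVPS4A+B#1, RFC2 was lower against both controls with siVPS4A#1, siVPS4B#1 and siVPS4A+B#2, and RFC3 was lower against both controls with siVPS4A#1, siVPS4B#1 and both pairs. RFC4, a clamp loader subunit, averaged 98.1 RPM in NT, 65.9 with siCTRL#1 and 61.5 with siCTRL#2, against 25.7 and 72.7 with siVPS4A#1 and siVPS4A#2, 35.8 and 47.3 with siVPS4B#1 and siVPS4B#2, and 43.8 and 35.7 with the pairs siVPS4A+B#1 and siVPS4A+B#2. For RFC5, a clamp loader subunit, the means in the same order were 53, 36.4 and 51.7 in the controls and 15.4, 46.3, 36, 41.1, 29.4 and 16.6 in the on-target conditions. POLA1, the catalytic subunit of polymerase alpha, had mean levels of 31.3, 22.4 and 19.4 in the controls and of 11.5, 23, 13, 20.3, 13.9 and 16 in the on-target conditions, in that order. RFC4 was lower against both controls with siVPS4A#1, siVPS4B#1 and both pairs, RFC5 was lower against both controls with siVPS4A#1 and siVPS4A+B#2, and POLA1 was lower against both controls with siVPS4A#1, siVPS4B#1 and siVPS4A+B#1. POLA2, the accessory subunit of polymerase alpha, averaged 28 RPM in NT, 26.7 with siCTRL#1 and 18.5 with siCTRL#2, against 8.93 and 33.3 with siVPS4A#1 and siVPS4A#2, 15.2 and 23.4 with siVPS4B#1 and siVPS4B#2, and 18.6 and 10.1 with the pairs siVPS4A+B#1 and siVPS4A+B#2. For POLD1, the catalytic subunit of polymerase delta, the means in the same order were 44.1, 46.3 and 26.5 in the controls and 24.9, 47.1, 24.4, 38.4, 23.5 and 27.7 in the on-target conditions. POLE, the catalytic subunit of polymerase epsilon, had mean levels of 38.1, 40.8 and 34.5 in the controls and of 14, 54.9, 23.5, 39.1, 26.6 and 23.4 in the on-target conditions, in that order. POLA2 and POLE were lower against both controls with siVPS4A#1, siVPS4B#1 and siVPS4A+B#2, and POLD1 was lower against both controls with siVPS4A#1, siVPS4B#1 and both pairs. POLE2, an accessory subunit of polymerase epsilon, averaged 5.24 RPM in NT, 5 with siCTRL#1 and 4.53 with siCTRL#2, against 1.94 and 4.97 with siVPS4A#1 and siVPS4A#2, 4.56 and 4.91 with siVPS4B#1 and siVPS4B#2, and 3.59 and 3.02 with the pairs siVPS4A+B#1 and siVPS4A+B#2. POLE2 was lower against both controls with siVPS4A#1.

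Of the 4 genes of nucleotide supply, RRM1, RRM2, TYMS and TK1, the number lower against both controls was 4 with siVPS4A#1, 0 with siVPS4A#2, 3 with siVPS4B#1, 0 with siVPS4B#2, 4 with siVPS4A+B#1 and 2 with siVPS4A+B#2. RRM2, the small subunit of ribonucleotide reductase, had 199, 193, 238 and 219 RPM in NT cells, 229, 218, 310.1, 228 and 281 with siCTRL#1 and 139, 144, 252 and 206 with siCTRL#2. Its levels were 67.3, 48.3, 51.1 and 34.5 with siVPS4A#1, 206, 239, 354 and 283 with siVPS4A#2, 93.3, 103, 169 and 135 with siVPS4B#1 and 159, 189, 285 and 272 with siVPS4B#2. The pairs gave 75.9, 132, 135 and 109 (siVPS4A+B#1) and 87.5, 111, 129 and 64.3 (siVPS4A+B#2). All libraries given siVPS4A#1, siVPS4B#1 and both pairs lay below every NT and siCTRL#1 library, and the libraries of siVPS4A#2 and siVPS4B#2 overlapped with them. The siCTRL#2 libraries overlapped with those of siVPS4B#1. Against siCTRL#1 the log2 fold change was -2.35 with siVPS4A#1 (adjusted p 4.94e-14), -1.08 with siVPS4B#1 (adjusted p 1.2e-05), -1.22 with siVPS4A+B#1 (adjusted p 5.05e-07) and -1.43 with siVPS4A+B#2 (adjusted p 1.1e-08), all called against both controls (limma). Elsewhere, with no call against both controls, it was 0.04 with siVPS4A#2 and -0.23 with siVPS4B#2. In NT cells RRM1, the large subunit of the same enzyme, stood at 63.7, 49.9, 69.97 and 69.95 RPM, with siCTRL#1 at 75.1, 55.8, 70.4, 84.1 and 65.8 and with siCTRL#2 at 63.8, 53.9, 82.2 and 62.7. Single silencing gave 36.9, 29.7, 21.7 and 17.8 (siVPS4A#1), 75.2, 63.5, 83.5 and 78.2 (siVPS4A#2), 36, 31.4, 50.5 and 45.9 (siVPS4B#1) and 45.2, 57.6, 61.3 and 79.8 (siVPS4B#2). RRM1 had 37.7, 43.2, 53.1 and 27.6 with siVPS4A+B#1 and 44, 32.4, 45.5 and 34 with siVPS4A+B#2. siVPS4A#1 and siVPS4A+B#2 left RRM1 lower in each library than in every NT and siCTRL#1 library, and the libraries of siVPS4A#2, siVPS4B#1, siVPS4B#2 and siVPS4A+B#1 overlapped with them. On the log2 scale the change from siCTRL#1 was -1.45 with siVPS4A#1 (adjusted p 1.41e-09), -0.84 with siVPS4B#1 (adjusted p 0.000147), -0.88 with siVPS4A+B#1 (adjusted p 4.34e-05) and -0.90 with siVPS4A+B#2 (adjusted p 1.73e-05), all called against both controls (limma). Values without a call against both controls: 0.03 with siVPS4A#2 and -0.28 with siVPS4B#2.

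TYMS, thymidylate synthase, averaged 432 RPM in NT, 473 with siCTRL#1 and 404 with siCTRL#2, against 243 and 571 with siVPS4A#1 and siVPS4A#2, 286 and 346 with siVPS4B#1 and siVPS4B#2, and 257 and 309.8 with the pairs siVPS4A+B#1 and siVPS4A+B#2. For TK1, the salvage kinase of thymidine, the means in the same order were 543, 610.03 and 389 in the controls and 303, 683, 395, 469, 346 and 449.8 in the on-target conditions. TYMS was lower against both controls with siVPS4A#1, siVPS4B#1 and siVPS4A+B#1, and TK1 was lower against both controls with siVPS4A#1 and siVPS4A+B#1.

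Of the 5 genes E2F1, E2F2, CCNE1, CCNE2 and UHRF1, the number lower against both controls was 3 with siVPS4A#1, 0 with siVPS4A#2, 2 with siVPS4B#1, 1 with siVPS4B#2, 3 with siVPS4A+B#1 and 3 with siVPS4A+B#2. UHRF1, which brings the maintenance DNA methyltransferase to newly copied DNA, had 127, 174, 182 and 169 RPM in NT cells, 142, 119, 174, 137 and 117 with siCTRL#1 and 63.5, 65.4, 76.9 and 65 with siCTRL#2. Its levels were 59.3, 47.4, 46.5 and 35.6 with siVPS4A#1, 153, 187, 166 and 188 with siVPS4A#2, 52.3, 53.5, 58.2 and 37.1 with siVPS4B#1 and 132, 98.1, 138 and 111 with siVPS4B#2. The pairs gave 54.9, 52.3, 48.8 and 43.7 (siVPS4A+B#1) and 62.6, 83.5, 38.3 and 54.5 (siVPS4A+B#2). All libraries given siVPS4A#1, siVPS4B#1 and both pairs lay below every NT and siCTRL#1 library, and the libraries of siVPS4A#2 and siVPS4B#2 overlapped with them. The siCTRL#2 libraries overlapped with those of siVPS4A+B#2. The fitted log2 fold change against siCTRL#1 was -1.51 with siVPS4A#1 (adjusted p 3.31e-10), -1.52 with siVPS4B#1 (adjusted p 2.71e-09), -1.52 with siVPS4A+B#1 (adjusted p 6.92e-10) and -1.31 with siVPS4A+B#2 (adjusted p 1.06e-08), all called against both controls (limma). Values without a call against both controls: 0.26 with siVPS4A#2 and -0.28 with siVPS4B#2. UHRF1 was also lower with siCTRL#2 than with siCTRL#1 (-1.08, adjusted p 1.14e-06, limma). In NT cells CCNE2, a cyclin E that activates CDK2 at the entry into S phase, stood at 13.4, 11.4, 12.6 and 12.2 RPM, with siCTRL#1 at 6.9, 9.02, 7.79, 8.4 and 8.7 and with siCTRL#2 at 9.38, 6.72, 11.9 and 8.48. Single silencing gave 5.97, 3.38, 2.54 and 2.32 (siVPS4A#1), 10.1, 10.8, 10.7 and 8.28 (siVPS4A#2), 4.12, 5.34, 4 and 3.55 (siVPS4B#1) and 2.99, 5.76, 5.26 and 6.19 (siVPS4B#2). CCNE2 had 2.18, 3.65, 2.74 and 2.05 with siVPS4A+B#1 and 3.55, 3.2, 4 and 3.01 with siVPS4A+B#2. For siVPS4A#1, siVPS4B#1, siVPS4B#2 and both pairs, no library reached the lowest of NT and siCTRL#1, and the libraries of siVPS4A#2 overlapped with them. Against siCTRL#1 the log2 fold change was -1.04 with siVPS4A#1 (adjusted p 1.74e-05), -0.85 with siVPS4B#1 (adjusted p 0.000764), -0.67 with siVPS4B#2 (adjusted p 0.0136), -1.38 with siVPS4A+B#1 (adjusted p 2e-07) and -1.09 with siVPS4A+B#2 (adjusted p 9.29e-06), all called against both controls (limma). The remaining value, 0.22 with siVPS4A#2, was not called against both controls.

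CCNE1, the other cyclin E, named after its values were seen, had 15.1, 15.8, 21.1 and 16 RPM in NT cells, 12.1, 15.8, 10.8, 8.69 and 11.1 with siCTRL#1 and 17.7, 20.8, 25.5 and 23.7 with siCTRL#2. Its levels were 27.1, 20.8, 30.1 and 37.5 with siVPS4A#1, 8.93, 11.1, 11.2 and 14.5 with siVPS4A#2, 11.3, 17.1, 15.5 and 20.9 with siVPS4B#1 and 15.3, 18.1, 20.3 and 24 with siVPS4B#2. The pairs gave 15.7, 20.2, 26.7 and 20.52 (siVPS4A+B#1) and 30.8, 32.2, 35.2 and 34.7 (siVPS4A+B#2). All libraries of siVPS4A+B#2 lay above every NT and siCTRL#1 library, and the libraries of siVPS4A#1, siVPS4A#2, siVPS4B#1, siVPS4B#2 and siVPS4A+B#1 overlapped with them. On the log2 scale the change from siCTRL#1 was 1.23 with siVPS4A#1 (adjusted p 1.03e-07) and 1.497 with siVPS4A+B#2 (adjusted p 1.68e-09), both called against both controls (limma). Values without a call against both controls: 0.02 with siVPS4A#2, 0.47 with siVPS4B#1, 0.73 with siVPS4B#2 and 0.82 with siVPS4A+B#1. CCNE1 was the member called higher with these duplexes. It was higher with siCTRL#2 than with siCTRL#1 as well (0.91, adjusted p 5.13e-05, limma).

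E2F1, an activator E2F, averaged 90.8 RPM in NT, 58.7 with siCTRL#1 and 49.3 with siCTRL#2, against 24.1 and 54.7 with siVPS4A#1 and siVPS4A#2, 39.8 and 52.9 with siVPS4B#1 and siVPS4B#2, and 33.7 and 31.6 with the pairs siVPS4A+B#1 and siVPS4A+B#2. For E2F2, an activator E2F, the means in the same order were 18, 7.52 and 11.2 in the controls and 4.87, 8.51, 7.12, 13.7, 8.8 and 10.9 in the on-target conditions. E2F1 was lower against both controls with siVPS4A#1 and both pairs, and E2F2 was not called against both controls in any of the 6 conditions.

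Of the 5 genes of homologous recombination, RBBP8, BRCA1, BRCA2, EXO1 and BLM, the number lower against both controls was 5 with siVPS4A#1, 0 with siVPS4A#2, 5 with siVPS4B#1, 1 with siVPS4B#2, 4 with siVPS4A+B#1 and 4 with siVPS4A+B#2. RBBP8, which starts the resection of broken ends, had 27.2, 26.5, 20.1 and 24.3 RPM in NT cells, 26.8, 21.2, 19.8, 24 and 18.7 with siCTRL#1 and 22.2, 16.4, 20.02 and 15.9 with siCTRL#2. Its levels were 16, 12.4, 11.9 and 8.55 with siVPS4A#1, 24.6, 21.6, 24 and 16.9 with siVPS4A#2, 3.97, 5.54, 4.4 and 4.79 with siVPS4B#1 and 10.4, 17.2, 12.9 and 17.7 with siVPS4B#2. The pairs gave 7.17, 4.72, 9.07 and 6.74 (siVPS4A+B#1) and 13, 9.61, 13.9 and 9.62 (siVPS4A+B#2). All libraries given siVPS4A#1, siVPS4B#1, siVPS4B#2 and both pairs lay below every NT and siCTRL#1 library, and the libraries of siVPS4A#2 overlapped with them. The siCTRL#2 libraries overlapped with those of siVPS4A#1 and siVPS4B#2. Against siCTRL#1 the log2 fold change was -0.81 with siVPS4A#1 (adjusted p 0.000205), -2.11 with siVPS4B#1 (adjusted p 8e-12), -0.67 with siVPS4B#2 (adjusted p 0.00795), -1.64 with siVPS4A+B#1 (adjusted p 9.1e-10) and -0.97 with siVPS4A+B#2 (adjusted p 1.68e-05), all called against both controls (limma). The remaining value, -0.11 with siVPS4A#2, was not called against both controls. RBBP8 was the member with the largest fall with siVPS4B#1. In NT cells BRCA1, a ubiquitin ligase subunit that acts in resection, stood at 14, 10.7, 15.3 and 16 RPM, with siCTRL#1 at 8.92, 8.78, 12.7, 10.4 and 12.4 and with siCTRL#2 at 6.63, 6.6, 7.31 and 9.12. Single silencing gave 4.26, 3.13, 4.98 and 4.03 (siVPS4A#1), 15.3, 9.11, 13.1 and 14.5 (siVPS4A#2), 4.42, 4.37, 5.33 and 3.24 (siVPS4B#1) and 6.78, 7.81, 15.9 and 16.1 (siVPS4B#2). BRCA1 had 4.37, 4.87, 6.44 and 4.54 with siVPS4A+B#1 and 4.57, 3.2, 2.72 and 6.97 with siVPS4A+B#2. For siVPS4A#1, siVPS4B#1 and both pairs, no library reached the lowest of NT and siCTRL#1, and the libraries of siVPS4A#2 and siVPS4B#2 overlapped with them. Those of siCTRL#2 overlapped with the libraries of siVPS4A+B#2. On the log2 scale the change from siCTRL#1 was -1.26 with siVPS4A#1 (adjusted p 1.93e-06), -1.09 with siVPS4B#1 (adjusted p 7.04e-05), -0.91 with siVPS4A+B#1 (adjusted p 0.00039) and -1.13 with siVPS4A+B#2 (adjusted p 1.18e-05), all called against both controls (limma). Conditions with no call against both controls gave 0.29 with siVPS4A#2 and 0.08 with siVPS4B#2.

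BRCA2, a mediator of strand exchange, averaged 6.85 RPM in NT, 6.47 with siCTRL#1 and 4.61 with siCTRL#2, against 1.73 and 8.34 with siVPS4A#1 and siVPS4A#2, 3.5 and 7.32 with siVPS4B#1 and siVPS4B#2, and 2.75 and 2.87 with the pairs siVPS4A+B#1 and siVPS4A+B#2. For EXO1, a nuclease of long-range resection, the means in the same order were 25, 16 and 19.1 in the controls and 7.43, 21.3, 7.96, 17.8, 11.8 and 12.7 in the on-target conditions. BLM, a RecQ helicase, had mean levels of 20.6, 15.3 and 13.9 in the controls and of 5.04, 18.7, 9.18, 12.1, 9.79 and 7.75 in the on-target conditions, in that order. BRCA2 and BLM were lower against both controls with siVPS4A#1, siVPS4B#1 and both pairs, and EXO1 was lower against both controls with siVPS4A#1 and siVPS4B#1.

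**Figure D3:**
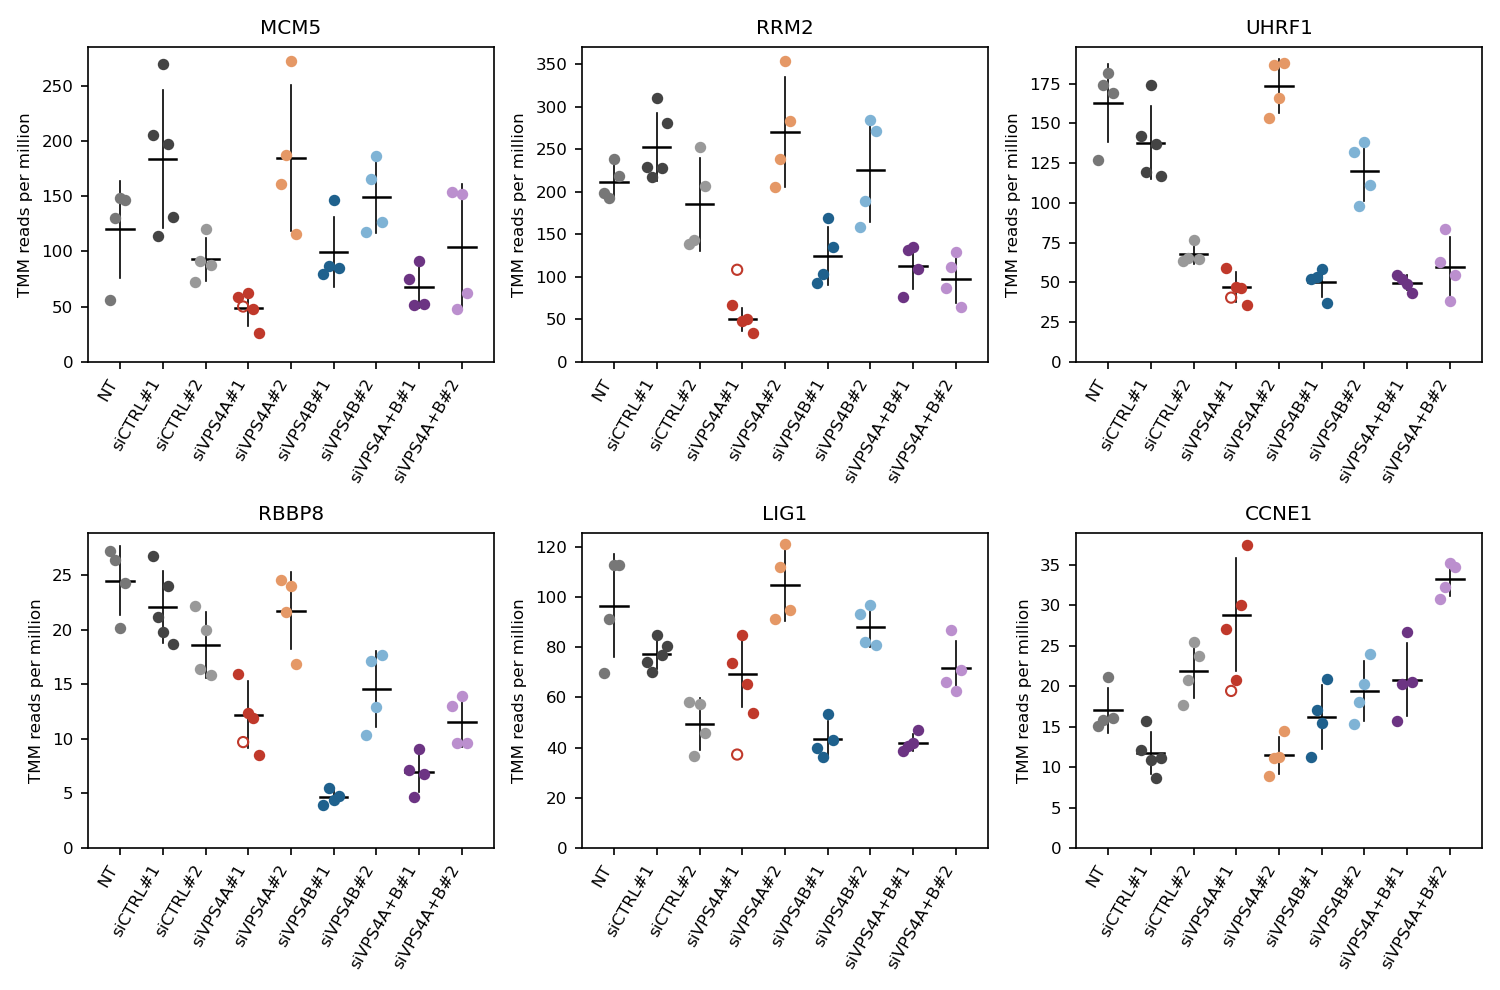
MCM5, RRM2, UHRF1, RBBP8, LIG1 and CCNE1 in TMM RPM by condition, each on its own axis from 0. Points are libraries (open, the library left out of the comparisons), bars mean and SD of the others; LIG1 is lower with siVPS4B#1, siVPS4A+B#1 and siCTRL#2, and CCNE1 is higher with siVPS4A#1, siVPS4A+B#2 and siCTRL#2.

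The duplexes against the same gene differed, and the differences were tested directly. Between siVPS4A#1 and siVPS4A#2, 42 of the 44 were lower (12.3% of all genes) and 1 higher (9.92%), with a median log2 fold change of -1.500. RRM2 differed by -2.39 (adjusted p 3.79e-13), GINS4 by -2.31 (6.58e-11) and MCM5 by -1.77 (4.63e-07, limma). CCNE1 was the member higher with siVPS4A#1. Both duplexes lowered VPS4A, and siVPS4A#1 left less of it. Between siVPS4B#1 and siVPS4B#2, 28 of the 44 were lower (7.25% of all genes) and 0 higher (7.89%), with a median log2 fold change of -0.70 (limma; 0 higher by edgeR and DESeq2 as well). RBBP8 differed by -1.43 (adjusted p 8.87e-08), UHRF1 by -1.24 (2.57e-07) and LIG1, which joins Okazaki fragments and is named after its values were seen, by -1.02 (1.22e-06).

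In NT cells LIG1, named after its values were seen, stood at 69.6, 91.1, 113 and 113 RPM, with siCTRL#1 at 74.1, 70.01, 84.8, 76.7 and 80.4 and with siCTRL#2 at 58.1, 36.7, 57.5 and 45.6. Single silencing gave 73.6, 84.7, 65.5 and 53.6 (siVPS4A#1), 91.1, 112, 121 and 94.9 (siVPS4A#2), 39.96, 36.4, 53.4 and 43.1 (siVPS4B#1) and 93.1, 81.9, 96.9 and 80.8 (siVPS4B#2). LIG1 had 38.5, 40.6, 42 and 46.9 with siVPS4A+B#1 and 66.3, 86.9, 62.5 and 71.1 with siVPS4A+B#2. siVPS4B#1 and siVPS4A+B#1 left LIG1 lower in each library than in every NT and siCTRL#1 library, and the libraries of siVPS4A#1, siVPS4A#2, siVPS4B#2 and siVPS4A+B#2 overlapped with them. Those of siCTRL#2 overlapped with the libraries of siVPS4B#1 and siVPS4A+B#1. LIG1 was also called lower with siCTRL#2 than with siCTRL#1 (-0.69). The fitted log2 fold change against siCTRL#1 was -0.87 with siVPS4B#1 (adjusted p 1.33e-05) and -0.90 with siVPS4A+B#1 (adjusted p 2.85e-06), both called against both controls (limma). Conditions with no call against both controls gave -0.18 with siVPS4A#1, 0.39 with siVPS4A#2, 0.15 with siVPS4B#2 and -0.15 with siVPS4A+B#2. Fewer members differed between the pairs. Between siVPS4A+B#1 and siVPS4A+B#2, the members' median log2 fold change was -0.08. Of the 44, 3 were lower (6.82%, beside 7.53% of all genes) and 2 higher (4.55%, beside 9.92%), no larger a share than of all genes. These 5, named after their values were seen, were LIG1 (-0.75, adjusted p 0.000111), CCNE1 (-0.67, adjusted p 0.00263), RBBP8 (-0.67, adjusted p 0.00382), RFC5 (0.77, adjusted p 0.000329) and POLA2 (0.82, adjusted p 0.00142), RFC5 being a subunit of the clamp loader and POLA2 of DNA polymerase alpha. Against both controls and with both pairs, 25 of the 44 were lower (4.16% of all genes) and 0 higher (3.96%), the lower including MCM2, GINS2, GINS4, PRIM1, RRM1, RRM2, UHRF1, CCNE2, RBBP8 and BRCA1. For VPS4B alone the same count over both duplexes was 3 lower (0.634%) and 0 higher (0.483%), GINS2, CCNE2 and RBBP8, and for VPS4A alone it was 0 (limma; 0.00792% of all genes).

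Each pair was set beside its own single duplexes, comparisons added after the data were seen. Between siVPS4A+B#1 and siVPS4B#1 the members came to 0 lower (5.04% of all genes) and 1 higher (4.85%), median 0.00, and 1 of the 44 at an unadjusted p under 0.05 with the same fold, the higher being CDT1 (0.63). Between siVPS4A+B#1 and siVPS4A#2 they came to 41 lower (12.1% of all genes) and 1 higher (11.4%), median -1.12, and 42 of the 44 at an unadjusted p under 0.05 with the same fold. Between siVPS4A+B#2 and siVPS4B#2 they came to 23 lower (13.9% of all genes) and 1 higher (11.8%), median -0.60, and 24 of the 44 at an unadjusted p under 0.05 with the same fold. Between siVPS4A+B#2 and siVPS4A#1 they came to 0 lower (8.93% of all genes) and 10 higher (8.55%), median 0.46, and 10 of the 44 at an unadjusted p under 0.05 with the same fold. The higher members there included MCM5 (0.84), RRM2 (0.92) and FEN1 (0.79), so these members were less low in the pair than with siVPS4A#1 and siCTRL#1. Without replicate 1 the 10 called became 18, and with library totals they became 6. The median was then 0.29 beside -0.14 over all genes, where with TMM it was 0.46 beside 0.00, so the members and all genes shifted alike. At an unadjusted p under 0.05 with the same fold (limma), 1307 of all 12627 genes passed between siVPS4A+B#1 and siVPS4B#1. It was 2980 between siVPS4A+B#1 and siVPS4A#2, 3258 between siVPS4A+B#2 and siVPS4B#2 and 2240 between siVPS4A+B#2 and siVPS4A#1.

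The interaction, the pair's change minus the sum of its single duplexes' changes, was tested in the same fit. In siVPS4A+B#1 it came to 1 lower (2.38% of all genes) and 0 higher (3.82%), median -0.14, and 3 of the 44 at an unadjusted p under 0.05 with the same fold. The member called was GMNN (-0.85, adjusted p 0.0294, limma), and without replicate 2, 3 or 4 the count was 0. In siVPS4A+B#2 it came to 0 lower (8.63% of all genes) and 19 higher (9.64%), median 0.68, and 27 of the 44 at an unadjusted p under 0.05 with the same fold (limma; 0 lower by edgeR and DESeq2 as well). There the pair's fall was smaller than the sum of the single falls for 19 members, among them MCM5 (1.24), RRM2 (1.15), RRM1 (0.83), GINS2 (0.89) and FEN1 (1.24). With the library labelled siVPS4A#1 replicate 2 included, whose VPS4B goes against its label, 12 of the 44 were called. At an unadjusted p under 0.05 with the same fold (limma), 1568 of all 12627 genes passed in siVPS4A+B#1 and 2877 in siVPS4A+B#2.

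**Figure D4:**
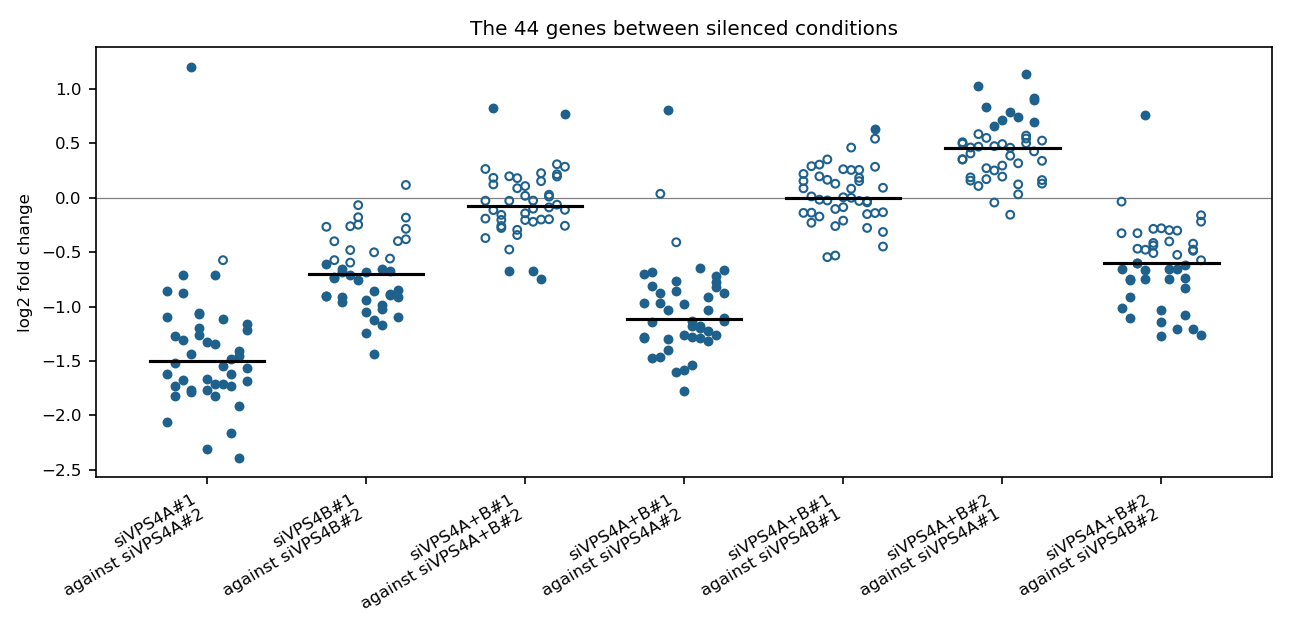
Log2 fold changes of the 44 genes in 7 comparisons between silenced conditions. Each point is a gene, filled where called, and bars are medians; the points lie mostly below 0 between siVPS4A#1 and siVPS4A#2 and near 0 between the pairs.

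Other genes of the same processes were counted from lists made with earlier results known. Of 18 further genes of licensing and firing, the number lower against both controls was 14 with siVPS4A#1, 0 with siVPS4A#2, 9 with siVPS4B#1, 1 with siVPS4B#2, 8 with siVPS4A+B#1 and 10 with siVPS4A+B#2. Of 17 further replisome and chromatin assembly genes it was 9 with siVPS4A#1 (and 1 higher), 0 with siVPS4A#2, 8 with siVPS4B#1 (and 1 higher), 0 with siVPS4B#2, 9 with siVPS4A+B#1 (and 1 higher) and 8 with siVPS4A+B#2. For 14 further genes of nucleotide supply it was 5, 0, 3, 0, 3 and 4 in the same order of conditions. For 31 further genes of recombination and checkpoints it was 16, 0, 11, 2, 12 and 12, and in both lists 0 were higher. Of all genes, 8.85%, 0.0317%, 5.23%, 2.36%, 7.3% and 10.9% were lower and 5.73%, 0%, 3.7%, 1.45%, 7.39% and 8.1% higher in these conditions, in that order. CLSPN, a checkpoint mediator at forks, had log2 fold changes against siCTRL#1 of -1.67, -1.15, -1.07 and -1.18 with siVPS4A#1, siVPS4B#1, siVPS4A+B#1 and siVPS4A+B#2, and DBF4, the activator of the CDC7 kinase, -1.57, -1.25, -0.95 and -1.28. ASF1B, a histone chaperone, had -2.14, -1.33, -1.49 and -1.56 and RNASEH2A, the catalytic subunit of RNase H2, -1.68, -1.10, -1.19 and -1.29, which was called against both controls only with siVPS4A#1 and siVPS4A+B#2.

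Of 22 further genes of G1/S control, the number lower was 8 with siVPS4A#1 (and 1 higher), 0 with siVPS4A#2, 7 with siVPS4B#1 (and 1 higher), 1 with siVPS4B#2 (and 1 higher), 5 with siVPS4A+B#1 (and 2 higher) and 7 with siVPS4A+B#2 (and 2 higher). The 1 or 2 genes higher in a condition are close to the share of all genes given above, except with siVPS4B#2, where 1 of 22 stands beside 1.45% of all genes. CDKN2C, an inhibitor of CDK4 and CDK6, had log2 fold changes against siCTRL#1 of -1.81, -1.15, -1.97 and -1.99 with siVPS4A#1, siVPS4B#1, siVPS4A+B#1 and siVPS4A+B#2. CCND3, a D-type cyclin, was higher against both controls only with siVPS4A+B#2 (2.49 against siCTRL#1 and 1.74 against NT), and it was also higher with siCTRL#2 than with siCTRL#1 (1.35). CDKN1A, the CDK inhibitor p21, is named after its values were seen. CDKN1A had 497, 424, 411 and 382 RPM in NT cells, 636, 759.99, 838, 604 and 724 with siCTRL#1 and 887, 1139, 841 and 994 with siCTRL#2. Its levels were 2194, 2417, 3341 and 3179 with siVPS4A#1, 466, 471, 495 and 645 with siVPS4A#2, 1150, 1167, 1278 and 1136 with siVPS4B#1 and 1267, 1039, 1288 and 1103 with siVPS4B#2. The pairs gave 2096, 1743, 1997 and 1500 (siVPS4A+B#1) and 2278, 2422, 1710 and 2008 (siVPS4A+B#2). All libraries of siVPS4A#1, siVPS4B#1, siVPS4B#2 and both pairs lay above every NT and siCTRL#1 library, and the libraries of siVPS4A#2 overlapped with them. The siCTRL#2 libraries overlapped with those of siVPS4B#1 and siVPS4B#2. Against siCTRL#1 the log2 fold change was 1.95 with siVPS4A#1 (adjusted p 6.25e-14), 0.77 with siVPS4B#1 (adjusted p 0.000114), 0.76 with siVPS4B#2 (adjusted p 0.000428), 1.39 with siVPS4A+B#1 (adjusted p 6.62e-10) and 1.59 with siVPS4A+B#2 (adjusted p 1.5e-11), all called against both controls (limma). The remaining value, -0.43 with siVPS4A#2, was not called against both controls. Genes of another cell cycle phase moved too. Of 18 genes of G2 and mitosis, the number lower against both controls was 18 with siVPS4A#1, 0 with siVPS4A#2, 16 with siVPS4B#1, 2 with siVPS4B#2, 16 with siVPS4A+B#1 and 17 with siVPS4A+B#2, with median log2 fold changes against siCTRL#1 of -2.07 with siVPS4A#1, 0.10 with siVPS4A#2, -1.04 with siVPS4B#1, -0.36 with siVPS4B#2, -0.94 with siVPS4A+B#1 and -1.44 with siVPS4A+B#2. In NT cells KIF20A, a kinesin of cytokinesis, stood at 23.6, 31, 34.1 and 29.9 RPM, with siCTRL#1 at 46.5, 51.1, 57.2, 45.6 and 44.4 and with siCTRL#2 at 26.3, 37.7, 27.3 and 33.4. Single silencing gave 13.4, 8.15, 11.3 and 7.09 (siVPS4A#1), 47.7, 49.9, 58.5 and 64.5 (siVPS4A#2), 16.6, 16.7, 24.8 and 14.8 (siVPS4B#1) and 29.5, 25.6, 37.9 and 41.5 (siVPS4B#2). KIF20A had 12.3, 21.4, 10.9 and 11.3 with siVPS4A+B#1 and 14.2, 8.54, 4.48 and 6.73 with siVPS4A+B#2. siVPS4A#1 and both pairs left KIF20A lower in each library than in every NT and siCTRL#1 library, and the libraries of siVPS4A#2, siVPS4B#1 and siVPS4B#2 overlapped with them. On the log2 scale the change from siCTRL#1 was -2.18 with siVPS4A#1 (adjusted p 5.14e-11), -1.47 with siVPS4B#1 (adjusted p 2.13e-06), -1.86 with siVPS4A+B#1 (adjusted p 6.14e-09) and -2.56 with siVPS4A+B#2 (adjusted p 1.43e-12), all called against both controls (limma). Conditions with no call against both controls gave 0.09 with siVPS4A#2 and -0.62 with siVPS4B#2. CENPF, a kinetochore protein, had -2.07, -1.40, -1.51 and -1.58 with siVPS4A#1, siVPS4B#1, siVPS4A+B#1 and siVPS4A+B#2. Of all genes, 8.85% were lower against both controls with siVPS4A#1, 0.0317% with siVPS4A#2 and 5.23% with siVPS4B#1. It was 2.36% with siVPS4B#2, 7.3% with siVPS4A+B#1 and 10.9% with siVPS4A+B#2. Genes of G2 and mitosis thus fell in the same conditions as the 44 genes.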

How the data were processed

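Ion AmpliSeq values of 12627 genes were taken from the table of normalized signal that the authors deposited, in which each library's values are shares of its total; the labels name HTSeq 0.6.0 and DESeq2 1.18.1 as the tools used. Each column is a whole multiple of a fixed step: within a tolerance of 0.1, 100% of the low values and of the finely printed values in every library were whole reads, and the reads were recovered by dividing by the step. In 2 columns the step lies near a decimal power. How counts became shares is not given in the sources used here. The paper set a minimum number of reads for the genes it tested and left genes that code for no protein out of its combined list, but whether the deposited table was cut by the same rules is not said. Since the deposited values are normalized, the main test was limma 3.58.1 in R 4.3.3 on log2(TMM RPM + 1), with trend, TMM factors from edgeR 4.0.16 (0.881 to 1.1), the 9 conditions and the replicate number as terms (24 residual degrees of freedom) and Benjamini-Hochberg adjustment over all genes.

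The replicate number is the batch in the labels. Libraries with the same number deviated together on average, though little for numbers 2 and 4 (mean r 0.171 in 137 pairs, and by number 0.269, 0.0707, 0.301, 0.0159 and 0.307; for pairs of unlike number it was -0.0784 in 529, across 11197 genes, which are not independent replicates). The edgeR quasi-likelihood test and DESeq2 1.42.0 on the recovered reads were alternatives. Against both controls limma, edgeR and DESeq2 called 1840, 2034 and 2016 genes with siVPS4A#1, 4, 4 and 5 with siVPS4A#2, 1128, 1242 and 1230 with siVPS4B#1, 481, 550 and 539 with siVPS4B#2, 1855, 2054 and 2016 with siVPS4A+B#1, and 2397, 2638 and 2588 with siVPS4A+B#2. The scripts were tested on simulated data.

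The members and lists were chosen with earlier results of these data known. Every member was given at least its condition means. Genes chosen for more were, in each role group, the 2 members with the largest mean absolute log2 fold change over the 6 on-target conditions against siCTRL#1. Members called in all 4 comparisons of a target or in an interaction were chosen too, and in each other list the 2 called genes with the largest such mean. Some genes that this rule picks are not described. Other genes are said to be named after their values were seen. Comparisons of a pair with a single duplex, and siCTRL#2 as a further control, were added after the data were seen. Promoters are from RefSeq (GRCh38.p14). Figures were drawn with matplotlib 3.10.9 in Python 3.11.15.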

Additional observations from a re-analysis of the deposited data

Results flagged for a closer look

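In 4 of 136 groups of libraries tested, 1 library stood far from the others of its group, where chance gives about 1 in 20 groups. UHRF1 had 76.9 RPM in siCTRL#2 replicate 3. VPS4A had 3.52 RPM in siVPS4A#1 replicate 1. In siVPS4B#1 replicate 3, MCM5 had 147 RPM and PRIM1 28.8.

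Differences between conditions were found by tests of the difference itself. Between the duplexes, 43 of the 44 genes were called for VPS4A (12.3% of all genes lower, 9.92% higher) and 28 for VPS4B (7.25% and 7.89%). Between the pairs 5 were called, no larger a share than of all genes. The interaction was called for 1 member in siVPS4A+B#1 (2.38% of all genes lower, 3.82% higher) and for 19 in siVPS4A+B#2 (8.63% and 9.64%). The library labelled siVPS4A#1 replicate 2, left out of the comparisons and with a VPS4B level that goes against its label, had a median log2 difference of the 44 genes from the siCTRL#1 mean of -1.06, below every control library.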

How the results depend on the processing

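Of 244 alternative values of 17 counts, 218 stayed within 1.5 times the main count and 26 did not. Single members gave 3696 values against siCTRL#1 alone, called or not, in 6 conditions and under 14 alternatives. Of these, 3622 kept their side of the threshold, 28 lost the call and 46 gained it. Where the main fit made a call, 0 reversed direction. Direction was not tallied for members without a call. Under another scaling, 1 such member changed sign with siVPS4A#2 and 1 with siVPS4B#1. This tally leaves out siCTRL#2 as a further control, under which 52 calls against both controls were lost, and the comparisons between duplexes, the pairs and the interactions. Where a count moved, the cause was not tested.

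With siCTRL#2 as a further control, added after the data were seen, the calls against both controls were 17 with siVPS4B#1, 1 with siVPS4B#2 and 16 with siVPS4A+B#1. With no fold minimum they were 5 with siVPS4B#2, 10 between siCTRL#1 and NT, and 18 between siVPS4A+B#2 and siVPS4A#1. With the library labelled siVPS4A#1 replicate 2 included, whose VPS4B goes against its label, 3 were called between siCTRL#1 and NT, 0 in the interaction of siVPS4A+B#1 and 12 in that of siVPS4A+B#2. With DESeq2, 2 were called in the interaction of siVPS4A+B#1 and 2 between siVPS4A+B#1 and siVPS4B#1. With library totals these were 2 and 2, and 6 between siVPS4A+B#2 and siVPS4A#1. With a pseudocount of 0.1, 3 were called between siVPS4A+B#1 and siVPS4B#1. With no replicate block, 3 were called between siCTRL#1 and NT and 0 in the interaction of siVPS4A+B#1, and the block moved no other count by over 1.5 times.

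Without each replicate number in turn, the members called ranged from 41 to 42 with siVPS4A#1, 0 to 0 with siVPS4A#2, 31 to 36 with siVPS4B#1, 0 to 4 with siVPS4B#2, 28 to 32 with siVPS4A+B#1 and 28 to 35 with siVPS4A+B#2. They ranged from 4 to 7 between siCTRL#1 and NT, 9 to 15 between the non-targeting duplexes, 42 to 44 between the VPS4A duplexes, 22 to 31 between the VPS4B duplexes and 5 to 6 between the pairs. The interactions ranged from 0 to 2 in siVPS4A+B#1 and 13 to 20 in siVPS4A+B#2. The pairs ranged from 1 to 2 against siVPS4B#1, 39 to 42 against siVPS4A#2, 18 to 29 against siVPS4B#2 and 8 to 18 against siVPS4A#1.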
